A study of Mus musculus with 6 samples.

Results

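The genes described here make, supply and load the MHC class I molecule, which shows peptides from inside the cell to CD8 T cells. They were the 10 genes H2-K1, H2-D1, H2-Q7, H2-T23, B2m, Tap1, Tap2, Tapbp, Psmb8 and Psmb9, and every array probe annotated to 1 of them was taken, whatever its signal. That gave 18 probes for the 10 genes, of 17658 named genes on the array. The arrays were Illumina Mouse-6 V1 bead arrays, which report 1 average bead intensity per probe. The 6 samples were total RNA from mouse embryonic fibroblasts in 3 groups of 2. The reconstituted cells (labelled IKKa+/+reconstituted) carried IKKa again, the IKKa-null cells (IKKa-/-) lacked it, and the wild-type cells had it. All 3 groups were grown in 10% FCS to 80% confluency, and no treatment beyond genotype is labelled. The vector used for reconstitution, the number of clones or embryos behind each group and how the cells were immortalised, if they were, are not given in the sources used here. Nothing says that the 2 samples of a group were separate cultures, and the tests therefore measure the spread of these samples alone, which could be technical.

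IKKa acts as a kinase in NF-kB signalling and is best known for driving the processing of the Nfkb2 product p100, which releases RelB-containing dimers. A class I molecule is a polymorphic heavy chain paired with beta-2-microglobulin. Peptides are cut by the proteasome, carried into the endoplasmic reticulum by the TAP transporter and loaded with the help of tapasin. Fibroblasts express class I at a modest level and raise it after interferon, and class I promoters carry an NF-kB site (kB) beside an interferon-response element.

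The promoter windows of 5 members are shown because the letters searched for those elements lie in some of them and not in others. All 5 genes encode chains of class I molecules. Each runs from 250 bases before to 50 bases after the start of the gene as RefSeq gives it on GRCm38.p6, and is written in the direction of transcription. Capitals mark a kB motif (the first run of capitals in H2-K1, H2-D1 and H2-Q7) and the interferon-response letters GAANNGAAA (the second run), both searched on both strands. The windows were chr17:34000298-34000597 on the minus strand for H2-K1 (the first of 2 windows listed for that gene), chr17:35262844-35263143 on the plus strand for H2-D1, chr17:35438905-35439204 on the plus strand for H2-Q7, chr17:36032652-36032951 on the minus strand for H2-T23 and chr2:122147437-122147736 on the plus strand for B2m.
H2-K1: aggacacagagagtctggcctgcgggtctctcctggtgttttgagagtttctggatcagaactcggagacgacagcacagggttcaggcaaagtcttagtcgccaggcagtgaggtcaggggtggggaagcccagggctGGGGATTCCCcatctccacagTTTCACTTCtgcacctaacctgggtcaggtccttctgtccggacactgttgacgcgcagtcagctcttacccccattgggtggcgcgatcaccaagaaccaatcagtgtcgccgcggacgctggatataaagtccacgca
H2-D1: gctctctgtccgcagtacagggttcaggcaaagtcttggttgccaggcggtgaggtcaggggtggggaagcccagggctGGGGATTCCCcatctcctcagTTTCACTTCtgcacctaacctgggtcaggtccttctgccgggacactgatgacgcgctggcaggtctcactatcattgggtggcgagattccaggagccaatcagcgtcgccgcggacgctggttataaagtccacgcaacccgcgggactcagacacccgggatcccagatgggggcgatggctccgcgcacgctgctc
H2-Q7: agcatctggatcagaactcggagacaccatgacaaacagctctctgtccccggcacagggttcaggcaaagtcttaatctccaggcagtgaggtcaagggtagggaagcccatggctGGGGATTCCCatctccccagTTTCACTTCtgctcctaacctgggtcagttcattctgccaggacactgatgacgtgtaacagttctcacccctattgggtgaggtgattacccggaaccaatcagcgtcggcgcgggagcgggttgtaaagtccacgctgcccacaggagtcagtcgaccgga
H2-T23: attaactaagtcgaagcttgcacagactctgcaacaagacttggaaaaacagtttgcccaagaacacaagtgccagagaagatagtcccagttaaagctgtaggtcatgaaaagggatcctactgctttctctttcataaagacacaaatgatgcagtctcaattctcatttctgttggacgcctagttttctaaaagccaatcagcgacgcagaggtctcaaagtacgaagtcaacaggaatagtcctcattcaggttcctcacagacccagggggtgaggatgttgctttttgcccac
B2m: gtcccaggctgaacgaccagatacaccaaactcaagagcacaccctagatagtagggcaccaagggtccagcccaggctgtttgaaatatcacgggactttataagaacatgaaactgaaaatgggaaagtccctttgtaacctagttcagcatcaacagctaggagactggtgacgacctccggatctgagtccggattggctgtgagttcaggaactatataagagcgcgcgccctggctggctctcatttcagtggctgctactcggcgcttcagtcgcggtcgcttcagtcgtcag

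A window was listed for 9 of the 10 members, Tap2 being the one without. The kB letters were present in 3 of the 9, H2-K1, H2-D1 and H2-Q7, against 0.107% of the 32851 promoter windows in the table. The interferon-response letters GAANNGAAA were present in the same 3 windows, against 7.52% of all windows. In H2-D1 the kB letters lay at positions -171 to -162 and the interferon-response letters at -150 to -142, and in H2-K1 at -111 to -102 and -90 to -82. A shorter form, AANNGAAA, was searched only after the first search had been seen to miss B2m. It was found in 5 of the 9 windows, adding H2-T23 and B2m, and in 23.9% of all windows, and it overlaps every GAANNGAAA match. TGACG was found in 6 of the 9 windows and in 20.8% of all windows, and CCAAT in 8 of the 9 and in 37.4% of all windows. The windows of H2-K1, H2-D1 and H2-Q7 were 71.3% to 73.7% identical to each other and 52.7% to 53.3% identical to that of H2-T23. A match of letters is a description of the window and does not show that a factor bound there.

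Of the 10 members, 9 lie on chromosome 17, in the order Tapbp, H2-K1, Psmb9, Tap1, Psmb8, Tap2, H2-D1, H2-Q7 and H2-T23, while B2m lies on chromosome 2. The windows of Tap1 and Psmb9, which are read in opposite directions, shared 275 bases.

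Array medians lay between 111.1 and 123.1 intensity units, and the medians of the 394 background probes lay between 100.8 and 114.45. A signal was taken as above background if under 1% of the background probes on the same array reached it, which set the limit at 152.6 to 178.0 units depending on the array. The test took the 11666 probes that were above background on at least 2 arrays, standing for 7408 named genes. Of the members, 10 probes for 8 genes were tested. Tap1 and Psmb8 were not, and the remaining 8 member probes were above background on at most 1 array. All 10 fibroblast markers were above background in at least 2 arrays, with summed signals of 20347.9 to 25563.8 units in reconstituted, 10502.4 to 10722.4 in IKKa-null and 6293.2 to 7039.5 in wild-type cells. Of 8 macrophage and dendritic cell markers with a probe, 1 (Cd14) was above background on at least 2 arrays and 6, Ptprc among them, on none. Single fibroblast markers went both ways between IKKa-null and wild-type cells, S100a4 by 1.62 and Pdgfra by -2.29 (limma adjusted p = 0.0111 and 0.000299). Vim passed the filter only through the IKKa-null arrays. Of the other 9, 5 were higher in reconstituted than IKKa-null cells and 0 lower, against 6.87% and 7.37% of all named genes. Against wild-type cells 6 were higher and 0 lower, against 15.6% and 21.3%. The log2 differences were 5.31 and 4.41 for Thy1 and 4.42 and 3.52 for Dcn, in that order. Cd14 was highest in IKKa-null cells, at 206.5 and 241.4 units, against 182.8 and 135.4 in reconstituted and 111.2 and 182.5 in wild-type cells, and was not called (limma adjusted p = 0.07 against wild-type cells). Lyz2 was above background on 1 IKKa-null array alone. Of 7 endothelial and 6 epithelial markers with a probe, 2 and 2 were above background on at least 2 arrays. Among these, Krt7 read 516.2 and 448.8 units in IKKa-null cells and stayed within background in reconstituted (105.5 and 105.2) and wild-type cells (134.6 and 139.6). Eng was higher (1.99, limma adjusted p = 0.00196) and Flt1 lower (log2 difference -1.96, limma adjusted p = 0.000907) in IKKa-null than wild-type cells, and Krt14 was lower (log2 difference -1.86, limma adjusted p = 0.00081). The part of these markers in the member results was not tested. No probe carried the symbol of the IKKa gene, Chuk, and the labels could not be checked on the deleted gene itself. In bulk RNA, fewer cells of a type and less RNA per cell cannot be told apart.

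**Figure D1:**
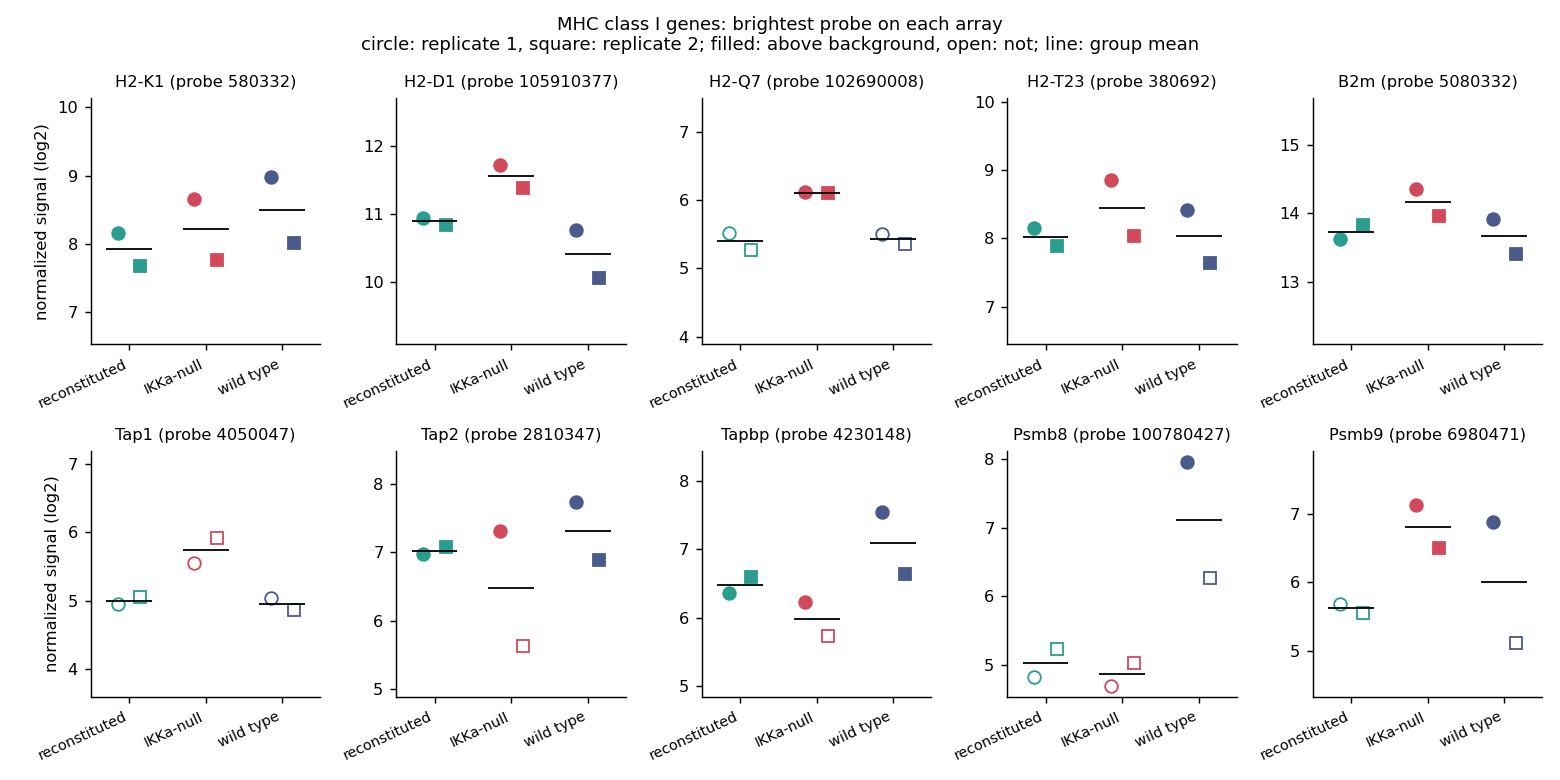
Normalized signal (log2, vertical axis) of the brightest probe of each of the 10 genes in reconstituted, IKKa-null and wild-type cells, with 1 point per array and a line at the mean of 2. H2-D1, H2-Q7 and B2m are highest in both IKKa-null arrays, while Tapbp is lowest in them and Psmb8 is above background on 1 wild-type array only.

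The first comparison asked what differed in fibroblasts without IKKa. Relative to wild-type cells, IKKa-null cells had higher H2-D1 and H2-T23 probe 2850609, and lower Tapbp. H2-T23 probe 102340121 was also called higher. It met the filter only with the help of the IKKa-null arrays, so that call is not counted as support for a difference. H2-Q7 was above background in IKKa-null cells only, passed the filter only through them and so had to be higher there, and it is described without a test. By brightest probe, 1 of the other 7 members was higher and 1 was lower at an adjusted p under 0.05 (limma, Benjamini-Hochberg over 11666 probes), and with H2-Q7 counted 2 of 8 were higher. Over all 7408 named genes tested, 29% were called, 13.6% higher and 15.4% lower. The median log2 difference of the 7 was 0.42, against -0.117 for all named genes. At an unadjusted p under 0.05, 2 of the 7 passed, against 41.7% of all named genes. The groups did not overlap for 4 of the 8 members, H2-Q7 among them, and for 70.4% of all named genes. By probe, without that of H2-Q7, 3 of 9 member probes were higher and 1 was lower, against 28.9% of all probes called. The 3 include H2-T23 probe 102340121, whose direction the filter favoured. A count of 2 in 7 genes lies near the background of 29%.

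H2-D1 encodes a classical heavy chain, 1 of those that present peptides to most CD8 T cells. Its probe 105910377 read 2354.5 and 1422.6 units in reconstituted cells, 3706.4 and 3124.1 in IKKa-null cells, and 1640.9 and 1259.0 in wild-type cells. Both IKKa-null arrays stood above all 4 others. The log2 difference between IKKa-null and wild-type cells was 1.14 (SE 0.27, limma adjusted p = 0.0203), or 2.20-fold. It was not called without IKKa-null replicate 1 (0.96, limma adjusted p = 0.109), without IKKa-null replicate 2 (1.31, 0.0529) and without wild-type replicate 2 (0.79, 0.0947), and it held in 13 of 16 other settings.

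H2-K1 encodes the other classical heavy chain measured. Its probe 580332 read 434.8 and 251.9 units in reconstituted, 496.7 and 340.5 in IKKa-null and 545.6 and 374.5 in wild-type cells, and all 3 groups overlapped. The difference between IKKa-null and wild-type cells was -0.29 on the log2 scale (95% interval -1.26 to 0.68, limma adjusted p = 0.624). Whether H2-K1 and H2-D1 differed in response was not tested. The promoter windows of both genes hold the same kB and interferon-response letters.

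H2-Q7 encodes a nonclassical heavy chain of the Qa-2 group. Its probe 102690008 read 143.0 and 126.9 units in reconstituted, 156.8 and 172.7 in IKKa-null and 128.6 and 137.4 in wild-type cells. Only the IKKa-null arrays were above background, and only just. The normalized log2 difference between IKKa-null and wild-type cells was 0.68 (SE 0.18), with no fold given because the wild-type level was within background. It is no support for a difference, since the probe entered the test only through the IKKa-null arrays. Over the other settings, 7 of 13 called it.

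H2-T23 encodes Qa-1, a nonclassical heavy chain recognised by receptors of natural killer cells. Its 3 probes disagreed. The brightest, 380692, read 431.5 and 273.1 units in reconstituted, 554.0 and 392.0 in IKKa-null and 394.7 and 308.5 in wild-type cells, with overlapping groups, and its difference between IKKa-null and wild-type cells was 0.42 (limma adjusted p = 0.394). Probe 2850609 read 251.6 and 234.4 units in reconstituted, 596.8 and 410.4 in IKKa-null and 137.2 and 170.1 in wild-type cells, so that the 3 groups were apart and wild-type cells were within background. Its log2 difference between IKKa-null and wild-type cells was 2.62 (SE 0.32, limma adjusted p = 0.00205), at least 4.84-fold on the background-corrected scale, and it was called in all 15 other settings. Without background correction the difference was smaller, 1.61, so the bound belongs to the corrected scale. Probe 102340121 read 181.2 and 131.6 units in reconstituted, 275.2 and 222.3 in IKKa-null and 122.4 and 119.4 in wild-type cells. Only the IKKa-null arrays and reconstituted replicate 1 were above background, so the probe met the filter only with the help of the IKKa-null arrays. Its log2 difference between IKKa-null and wild-type cells was 2.03 (SE 0.34, limma adjusted p = 0.00681), at least 1.86-fold. The filter favoured that direction, so the call is not counted as support for a difference. It was lost only without wild-type replicate 2 (1.84).

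The heavy chain genes are similar in sequence, and a probe for 1 of them may take up transcripts of others or miss an allele of another mouse strain. The probe sequences were not held here, so cross-hybridisation was not tested, and each heavy chain value above belongs to its probe before it belongs to a gene.

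**Figure D2:**
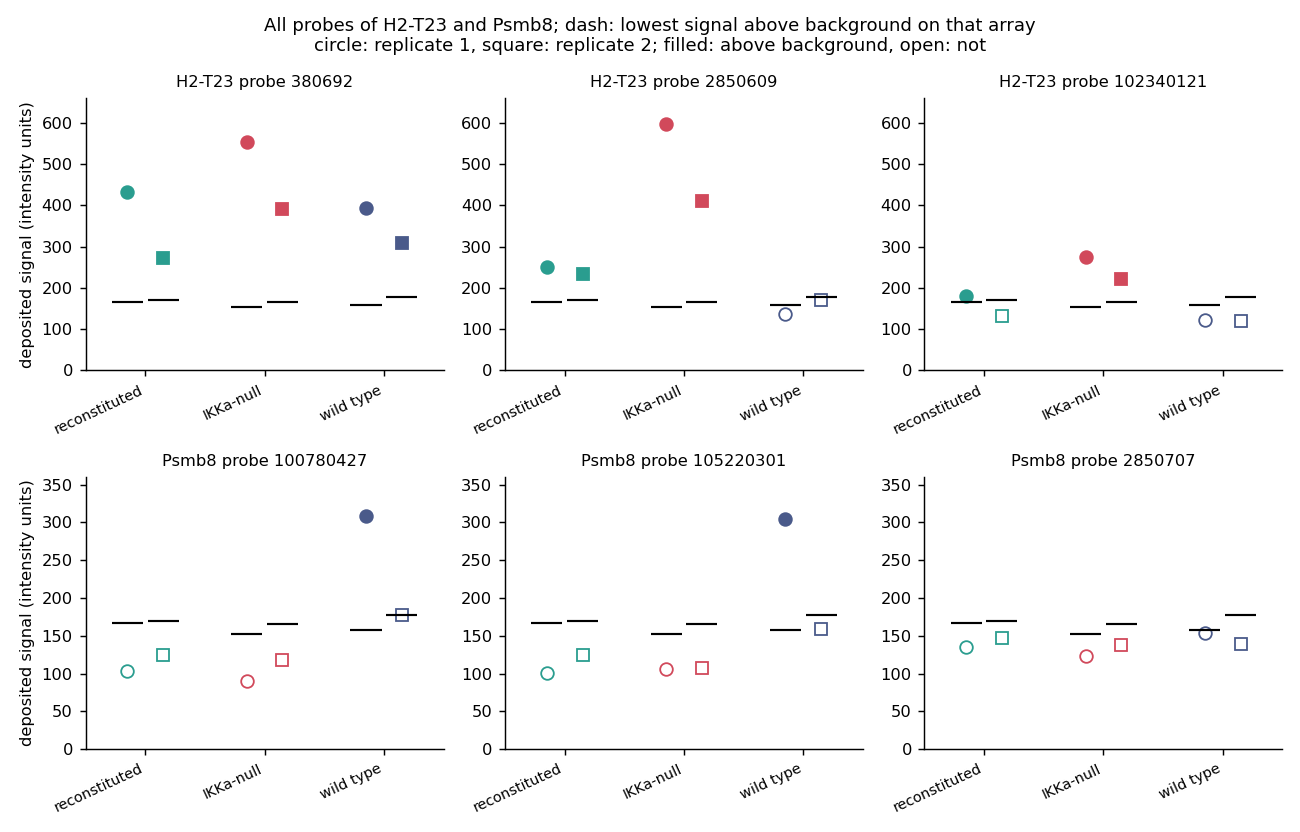
Deposited signal (intensity units, vertical axis) of the 3 H2-T23 probes and the 3 Psmb8 probes on each array, with a dash at each array's detection limit. H2-T23 probes 2850609 and 102340121 are above background on both IKKa-null arrays and on no wild-type array, while probe 380692 is above background on all 6.

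B2m encodes beta-2-microglobulin, the light chain of every class I molecule. Its probe 5080332 read 16033.6 and 11714.7 units in reconstituted, 22002.4 and 17749.4 in IKKa-null and 12583.6 and 11120.1 in wild-type cells. Both IKKa-null arrays stood above the other 4, but the difference from wild-type cells was 0.50 on the log2 scale (95% interval -0.08 to 1.07, limma adjusted p = 0.166).

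Tap1 and Tap2 encode the paired chains of the transporter. Tap1 (probe 4050047) read 113.2 and 117.1 units in reconstituted, 133.1 and 162.5 in IKKa-null and 111.6 and 113.4 in wild-type cells, within background on all 6 arrays, so no difference is given. Tap2 read 246.1 and 202.1 units in reconstituted, 248.8 and 148.8 in IKKa-null and 275.7 and 224.0 in wild-type cells, and IKKa-null replicate 2 alone was within background. Its difference of -0.84 between IKKa-null and wild-type cells (SE 0.53, limma adjusted p = 0.271) became -1.67 (limma adjusted p = 0.038) without IKKa-null replicate 1 and 0.003 (limma adjusted p = 0.997) without IKKa-null replicate 2.

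Tapbp encodes tapasin, which holds the empty class I molecule at the transporter. It read 192.0 and 175.6 units in reconstituted, 162.7 and 153.0 in IKKa-null and 252.9 and 201.1 in wild-type cells. The IKKa-null arrays were the lowest and the wild-type arrays the highest, with no overlap. The log2 difference between IKKa-null and wild-type cells was -1.11 (SE 0.33, limma adjusted p = 0.0429), with 1 of 2 IKKa-null arrays above background. It was called in 7 of 15 other settings, and was lost without wild-type replicate 1 (-0.67, limma adjusted p = 0.179), IKKa-null replicate 1 (-1.36, 0.0738), IKKa-null replicate 2 (-0.86, 0.199) or reconstituted replicate 2 (-1.15, 0.0538).

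Psmb8 and Psmb9 encode subunits of the immunoproteasome, the form of the proteasome that interferon induces. Psmb8 probe 100780427 read 104.1 and 125.2 units in reconstituted, 89.6 and 118.5 in IKKa-null and 308.2 and 177.8 in wild-type cells. Probe 105220301 read 100.5 and 124.9 units in reconstituted, 106.7 and 106.9 in IKKa-null and 304.8 and 159.2 in wild-type cells. On both probes wild-type replicate 1 was above background and the other 5 arrays were not, so Psmb8 did not enter the test. On probe 100780427 wild-type replicate 2, at 177.8 units, lay just below the limit of 178.0 on that array. A filter of at least 1 array above background would admit Psmb8 only through wild-type replicate 1, which fixes the direction, so no test is given. The third probe, 2850707, was within background on all 6 arrays. Psmb9 read 150.7 and 137.7 units in reconstituted, 228.5 and 197.9 in IKKa-null and 191.5 and 126.9 in wild-type cells. Its wild-type arrays lay far apart. The difference between IKKa-null and wild-type cells was 0.81 (SE 0.53, limma adjusted p = 0.283). It became 1.72 when the first wild-type array was left out and -0.07 when the second was. In the fit that gave 1.72, Psmb9 met the filter only through the IKKa-null arrays, which fixes the direction. That value is therefore no support for a difference.

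The second comparison asked what differed once IKKa was put back. Between reconstituted and IKKa-null cells, 0 of the 8 tested members were higher and 1, H2-Q7, was lower, against 14.2% of all named genes called, 6.87% higher and 7.37% lower (limma). By probe, without that of H2-Q7, 2 of 9 member probes were lower, against 13.3% of all probes called. The 2 include H2-T23 probe 102340121, which met the filter only with the help of the IKKa-null arrays. The groups did not overlap for 5 of the 8 members and for 60.1% of all named genes. H2-Q7 had passed the filter only through the IKKa-null arrays, and without it 0 of 7 members were called in either direction. At an unadjusted p under 0.05, 1 of the 7 passed, H2-D1, against 30.6% of all named genes. The median log2 difference of the 7 was -0.43, against -0.024 for all named genes. The IKKa-null arrays are part of both this comparison and the first, so opposite signs in the pair are not independent of each other.

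H2-Q7 differed by -0.71 between reconstituted and IKKa-null cells (SE 0.18), a direction the filter had fixed. H2-T23 probe 2850609 was lower (log2 difference -1.29, SE 0.32, limma adjusted p = 0.0424) and was called in 7 of 15 other settings. Of those leaving out an array, it was called only without IKKa-null replicate 2, and the values ran from -1.72 to -0.86. H2-T23 probe 102340121 was lower (log2 difference -1.38, SE 0.34, limma adjusted p = 0.043), also called in 7 of 15 other settings. Of those leaving out an array, it was called only without reconstituted replicate 1. There the probe passed the filter only through the IKKa-null arrays, which fixes the direction, so that call is no support. In the main fit the probe met the filter only with the help of the IKKa-null arrays, which favoured the same direction. The main call of this probe is therefore not counted as support for a difference either. When an array was left out, its values ran from -1.75 to -1.004.

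The remaining members did not pass in this comparison. H2-D1 differed by -0.66 (95% interval -1.29 to -0.03, limma adjusted p = 0.155), with no overlap between the groups. B2m differed by -0.43 (95% interval -1.01 to 0.14, limma adjusted p = 0.289) and Tapbp by 0.50 (95% interval -0.28 to 1.27, limma adjusted p = 0.364), each without overlap. Psmb9 differed by -1.19 (limma adjusted p = 0.189). When 1 wild-type array was left out, the value was -1.21 (replicate 1 out) or -1.19 (replicate 2 out). These arrays enter this comparison through the shared spread, and replicate 1 also through the filter. With replicate 1 out, Psmb9 met the filter only through the IKKa-null arrays, which fixes the direction, so that fit is no support.

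**Figure D3:**
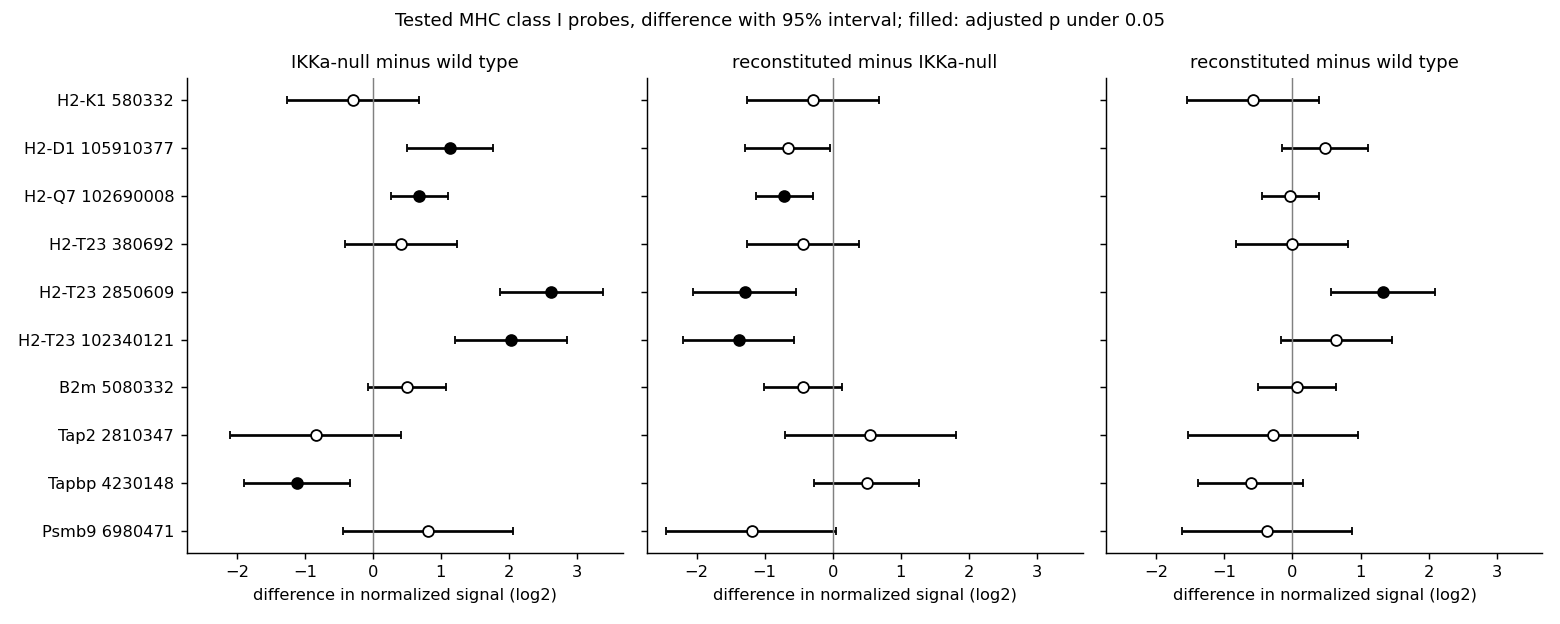
Log2 difference in normalized signal with its 95% interval for the 10 tested member probes in each of the 3 comparisons, filled where the adjusted p was under 0.05. Filled points include that of H2-Q7 in the left and middle panels, which passed the filter only through the IKKa-null arrays. Without H2-Q7, 3 probes are called higher and 1 lower in IKKa-null cells in the left panel. In the middle panel 2 are called lower in reconstituted cells, and in the right panel 1 is called higher in reconstituted cells. H2-T23 probe 102340121, filled in the left and middle panels, met the filter only with the help of the IKKa-null arrays.

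The third comparison set reconstituted against wild-type cells. By brightest probe, 0 of the 8 members were called in either direction, against 36.9% of all named genes called, 15.6% higher and 21.3% lower (limma). At an unadjusted p under 0.05, 0 of the 8 passed, against 48.1% of all named genes. The groups did not overlap for 2 of the 8 members and for 71.9% of all named genes. By probe, 1 of the 10 tested member probes was called, against 36.3% of all probes. The median log2 difference was -0.16, against -0.145 for all named genes. H2-T23 probe 2850609, which is not the brightest of its gene, was higher in reconstituted cells by 1.33 (SE 0.32, limma adjusted p = 0.0185), at least 1.98-fold on the background-corrected scale and 0.68 on the log2 scale without background correction. That call was lost without wild-type replicate 1 (1.14, limma adjusted p = 0.0945), wild-type replicate 2 (1.505, 0.0552) or reconstituted replicate 2 (1.13, 0.085). Psmb8 was within background on both reconstituted arrays, as on both IKKa-null arrays. For the others a missed threshold does not show likeness: the 95% interval ran from -0.15 to 1.10 for H2-D1 and from -1.55 to 0.39 for H2-K1.

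Within groups, the 2 arrays differed in the members mostly in 1 direction. By normalized signal, the array numbered 1 was the brighter for 5 of 8 members in reconstituted cells, against 48% of all named genes. It was the brighter for 8 of 8 in IKKa-null cells, H2-Q7 by only 0.006, and for 8 of 8 in wild-type cells. The shares of all named genes there were 48.2% and 51.4%. The median member difference between array 1 and array 2 was 0.12 in reconstituted, 0.57 in IKKa-null and 0.81 in wild-type cells on the log2 scale. Irf1, an interferon-induced factor that acts on class I promoters, differed in the same direction and is named here because of its values. Its probe 6980577 read 4617.2 units on array 1 and 239.8 on array 2 of reconstituted cells, 3464.3 and 204.3 in IKKa-null cells, and 949.7 and 347.9 in wild-type cells. The part of Irf1 in the member differences was not tested.

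**Figure D4:**
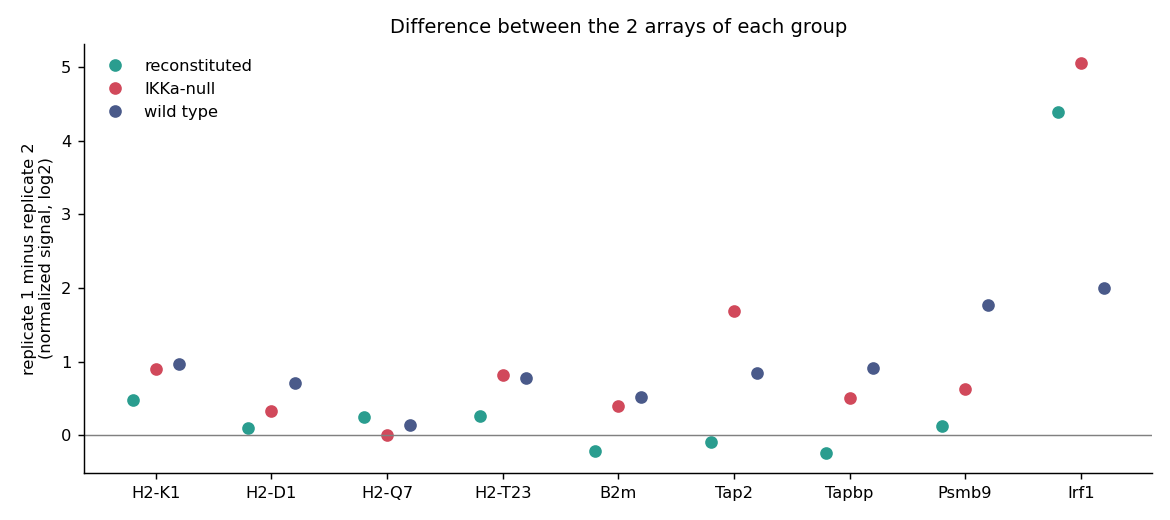
Log2 difference in normalized signal between replicate 1 and replicate 2 within each group, for the 8 tested members and Irf1. All points lie above 0 in IKKa-null and wild-type cells, H2-Q7 in IKKa-null cells by only 0.006, and Irf1 lies highest in every group.

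The other genes of the pathway moved in both directions. The counts stand against 13.6% of all named genes higher and 15.4% lower. Between IKKa-null and wild-type cells, 1 of 14 further processing and loading genes was higher and 2 were lower: Canx, the chaperone calnexin, was higher by 1.39 (SE 0.19, limma adjusted p = 0.00282), while Pomp, which helps assemble the proteasome, was lower (log2 difference -0.74, limma adjusted p = 0.0214) and so was Uggt1, which checks glycoprotein folding (-0.55, limma adjusted p = 0.0469). Of 12 standard proteasome subunits, 1 was higher (Psmb5, 0.59) and 5 were lower, among them Psmb7 (-0.66), Psmb6 (-0.65) and Psmb3 (-0.64). These values belong to the brightest probes. Of the other Psmb7 probes tested, 1 was also lower (-0.81, limma adjusted p = 0.0128) and 1 was not called (0.29, limma adjusted p = 0.287). The other tested Psmb3 probe was not called (-0.29, limma adjusted p = 0.272). Of 7 other class I genes tested, 0 were called. Between reconstituted and wild-type cells, 0 of the 12 subunits were higher and 5 were lower, against 15.6% and 21.3% of all named genes. By brightest probe, Psmb7 (-0.87), Psmb3 (-0.86), Psmb6 (-0.85), Pomp (-0.84) and Canx (0.97) were called there in the same directions. Psmb5 (-0.20) and Uggt1 (0.10) were not called there.

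Among 17 regulators of class I transcription, Relb left out, 1 was higher and 2 were lower when IKKa-null cells were set against wild-type cells, a smaller share than the 29% of all named genes called. Relb, the NF-kB subunit released by p100 processing, read 162.9 and 129.8 units in reconstituted, 124.5 and 115.8 in IKKa-null and 191.9 and 189.2 in wild-type cells. Only the wild-type arrays were above background, so Relb passed the filter through them alone and is given without a test. Nfkb2, which encodes p100, was lower (log2 difference -1.29, SE 0.30, limma adjusted p = 0.0211). The other regulator called lower was Ezh2 (log2 difference -1.035, SE 0.24, limma adjusted p = 0.0205). Rfx5, part of a complex that binds MHC promoters, was higher by 0.58 on its brightest probe (limma adjusted p = 0.0496), while its other tested probe differed by -0.39 (limma adjusted p = 0.333). Between reconstituted and IKKa-null cells, the interferon-gamma receptor chain Ifngr2 (0.96, limma adjusted p = 0.026) and Stat3 (0.87, limma adjusted p = 0.044) were higher and 0 of the 17 were lower, against 6.87% and 7.37% of all named genes. Between reconstituted and wild-type cells, Rfx5 and Ifngr2 were higher by their brightest probes and 0 of the 17 were lower, against 15.6% and 21.3% of all named genes.

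Fcgrt, the class I-like Fc receptor that recycles IgG, was the called gene among other class I genes in both comparisons of reconstituted cells. It read 1582.4 and 1457.9 units in reconstituted, 474.1 and 349.8 in IKKa-null and 608.0 and 420.1 in wild-type cells. It was higher in reconstituted than in IKKa-null cells by 2.41 (SE 0.39, limma adjusted p = 0.00972), or 5.31-fold. Of 11 MHC class II genes, 2 were tested, H2-Ob only through the reconstituted arrays, and H2-DMb2 was lower in reconstituted than in wild-type cells (log2 difference -0.81, limma adjusted p = 0.0471).

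The genes whose pattern over the 6 arrays was most like that of H2-D1 were Lox, Rapgef3, Man2b2, Rab38 and Exoc4, with root mean square differences of 0.06, 0.14, 0.15, 0.15 and 0.16 on the centred log2 scale. H2-D1 was taken for this after its values were seen, because Tap1 and Psmb8, named for it earlier, did not enter the test.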

How the data were processed

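The deposited array files hold average bead intensity per target, exported from BeadStudio 1.5.0.34 without normalization, per the file headers. The deposited series matrix holds a second, quantile-like set of intensity values with no stated method. Gene names came from matching the 6 values of each target to that matrix by rank (46116 of 46120), and 29534 had 1 gene symbol in the platform annotation. Background was corrected in limma 3.58.1 under R 4.3.3 (nec), with 352 immune-receptor segment and 42 control targets as background and an offset of 16, then quantile normalized and taken to log2. The fit (lmFit, eBayes, two-sided) used all 6 arrays. A gene was represented by its brightest tested probe, and all member probes were named. Folds against a group within background are lower bounds ("at least") on the background-corrected scale, set at the lowest signal above background. The fit was tested on simulated data. The number of arrays limits the precision. Members, lists and named-gene rules were chosen with earlier results of these data known, and the motif AANNGAAA was added after the result of GAANNGAAA was seen. Same-numbered arrays deviated together with correlations of 0.30, 0.37 and 0.05 in the 3 pairs of groups. The main fit did not take the numbers to pair samples, and the replicate number was fitted as a block as an alternative.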

Additional observations from a re-analysis of the deposited data

How the results depend on the processing

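Each comparison was refitted under 16 alternatives, and under 1 more (above background on at least 1 array) chosen after the data were seen. The counts hold H2-Q7, which passed the filter only through the IKKa-null arrays; the counts without it, also chosen after the data were seen, stand beside each comparison. Over the member probes, 0 differences that had been called changed sign. For IKKa-null against wild-type cells, the count of members higher, 2, became 1 without background correction, with normexp, with median scaling, with the deposited matrix and with probes above background on all 6 arrays, became 3 with no filter (Tap1 added, within background on every array), and ran from 0 to 2 when an array was left out. The count lower, 1, became 0 with median scaling, cyclic loess, all 6 arrays above background, no filter and a fit on 4 arrays, became 2 with at least 1 array above background (Psmb8 added, through 1 wild-type array), and ran from 0 to 1 when an array was left out. The count lower in reconstituted than in IKKa-null cells, 1, became 0 without background correction, with normexp, with the deposited matrix, all 6 arrays above background, no filter or at least 1 array, became 2 with the median over the probes of a gene, and ran from 0 to 1 when an array was left out. The count lower in reconstituted than in wild-type cells, 0, became 1 with at least 1 array above background and ran from 0 to 1 when an array was left out. When an array was left out, the member medians ran from -0.016 to 0.768, from -0.743 to -0.024 and from -0.549 to 0.231 in the 3 comparisons. Probes called over the whole array, 3373, 1552 and 4240, became 1892, 923 and 2361 with median scaling, and ran from 1354 to 3593, 428 to 1178 and 1921 to 3799 when an array was left out. Median scaling moved the share of higher calls to 70.3%, against 51.7%, in the first comparison and to 37.8%, against 48.5%, in the second, and the median over all probes to 0.036, against -0.067, and to -0.17, against -0.013. With the replicate number as a block, 3609, 1668 and 4515 probes were called, H2-T23 probe 2850609 between reconstituted and IKKa-null cells was not called (-1.29, limma adjusted p = 0.0524), and probe 102340121 between reconstituted and wild-type cells was (0.65, limma adjusted p = 0.0387). The cause of these changes was not tested. With 2 arrays a group and most members near background, small differences were not detectable.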
